A study of Homo sapiens with 6 samples.

Results

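Adhesion G protein-coupled receptors (adhesion GPCRs) were examined in KYSE150 cells, an established human esophageal squamous cell carcinoma (ESCC) line. The 10 genes described here are ADGRA2, ADGRA3, ADGRB2, ADGRE5, ADGRF1, ADGRF4, ADGRG1, ADGRG6, ADGRL1 and ADGRL2, out of 33 human genes of the family and 67140 gene identifiers in the deposited table. They were chosen by name with their measured levels and fold changes of this same comparison already known, and no numerical limit for entry was stated. Their levels and fold changes between groups are therefore given as a description, and test results printed for them are not read as evidence. Level alone did not define the choice, because CELSR1, CELSR2, ADGRV1, ADGRE2 and ADGRL3, which are not among the 10, all lay above ADGRL2 in mean CPM.

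The study asked which transcripts change when the long noncoding RNA AC007128.1 is targeted. Of 6 KYSE150 libraries, 3 carried a control hairpin (shCtrl) and 3 a hairpin against AC007128.1 (shAC007128.1), each in cells kept in RPMI medium with 10% fetal bovine serum. Per the study's methods the hairpins came in by lentivirus and the stable lines were selected with puromycin, so the control cells also carry a vector and its selection. A single hairpin and a single control represent each condition, and the labels do not say whether the 3 samples of a group were separate cultures, so p-values measure only the spread between these samples. RNA with poly-A tails was sequenced in bulk, in which fewer expressing cells and less RNA per cell cannot be told apart.

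Adhesion GPCRs join a long extracellular region, often built from adhesion domains, to a membrane-spanning region of the kind shared by all GPCRs. Most are cut by their own GAIN domain at the GPCR proteolysis site (GPS), after which the pieces stay bound to each other, and the freed end just past the cut can act as a tethered agonist. Through heterotrimeric G proteins they link contact with matrix or neighbouring cells to signalling inside the cell, cyclic AMP among it, and in epithelia they are known for roles in adhesion, polarity and migration.

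The coding sequence around the GPS is shown because it is the feature that gives the family its mode of activation and because it separates the 10 genes on grounds that the choice did not use. Each line holds 48 bases of the GENCODE v44 canonical transcript (hg38), 5′ to 3′ on the coding strand. Capitals mark the codons for histidine, for leucine or another hydrophobic residue, and for serine or threonine, and the cut falls just before the last of them.
ADGRG1: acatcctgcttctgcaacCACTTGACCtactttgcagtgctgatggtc
ADGRG6: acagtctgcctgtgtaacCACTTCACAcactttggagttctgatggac
ADGRE5: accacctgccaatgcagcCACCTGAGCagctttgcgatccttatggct
ADGRL1: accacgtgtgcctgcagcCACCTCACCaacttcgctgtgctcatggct
ADGRL2: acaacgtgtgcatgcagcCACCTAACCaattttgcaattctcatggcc
ADGRB2: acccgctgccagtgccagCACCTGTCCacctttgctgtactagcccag
ADGRF1: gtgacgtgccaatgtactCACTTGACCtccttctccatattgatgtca
The pattern searched in the coding codons was cysteine, any residue, cysteine, any residue, histidine, then a hydrophobic residue and serine or threonine, and it occurred once in 7 of the 10 genes. In ADGRA2, ADGRA3 and ADGRF4 these letters were not found, which says nothing about how those receptors are processed. Coding lengths ran from 687 codons in ADGRG1 to 1585 in ADGRB2. The share of codons before the cut ran from 55.6% in ADGRG1 to 67.2% in ADGRG6, so in each of the 7 the piece before the cut is the longer one.

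Depth was 55764405 to 78610457 counts per library, with each shCtrl library deeper than each shAC007128.1 library, and levels are given as CPM, the usual depth-scaled counts, after TMM scaling. A count of 3, taken as the smallest detectable level, equals 0.0373 to 0.0546 CPM and covers counting error only. The paper reports, from quantitative PCR, that its hairpin lowered AC007128.1. In the counts used here the targeted AC007128.1 (ENSG00000229970) had 69, 33 and 53 in shCtrl and 18, 37 and 15 in shAC007128.1. Its groups overlapped, and its log2 fold change was -0.77 (SE 0.51, n = 3 per group; edgeR quasi-likelihood test, Benjamini-Hochberg adjusted p = 0.271), so its lowering was not detectable by this test. All 9 squamous epithelial markers examined (keratins, TP63, desmosomal genes and others) passed the filter, with a summed level of 2470 to 2520 CPM in shCtrl and 3430 to 4020 in shAC007128.1. The markers did not all differ alike: edgeR called KRT14 and KRT6A higher and DSG3 lower (203 against 95.3 CPM). TP63 overlapped between the groups (log2 fold change -0.27, SE 0.24, edgeR adjusted p = 0.406). Its values were 96.0, 99.6 and 182 CPM in shCtrl and 99.9, 102 and 111 CPM in shAC007128.1.

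Among the 19254 genes that passed the low-count filter, 10.1% were called lower and 5.57% higher in shAC007128.1, a call being an adjusted p of at most 0.05 with a fold change of at least 2. All 10 receptors passed the filter, 2 of them were called lower (ADGRA2 and ADGRG1) and 0 higher. Without a limit on fold change 4 were lower and 3 higher by edgeR's adjusted p, beside 19.8% and 21.0% of all genes, and DESeq2 and limma-voom likewise called 2 lower and 0 higher. The unadjusted p was under 0.05 for 3 with a positive and 5 with a negative fold change. In 5 receptors the 3 hairpin libraries all lay beneath the lowest control library, in 3 all lay above the highest, and in 2 the groups overlapped, beside 28.2% and 27.0% of all genes separated downward and upward. The median log2 fold change of the 10 was -0.34, and that of all genes tested -0.02. Nothing is read from these counts, since the genes were selected on this comparison.

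**Figure D1:**
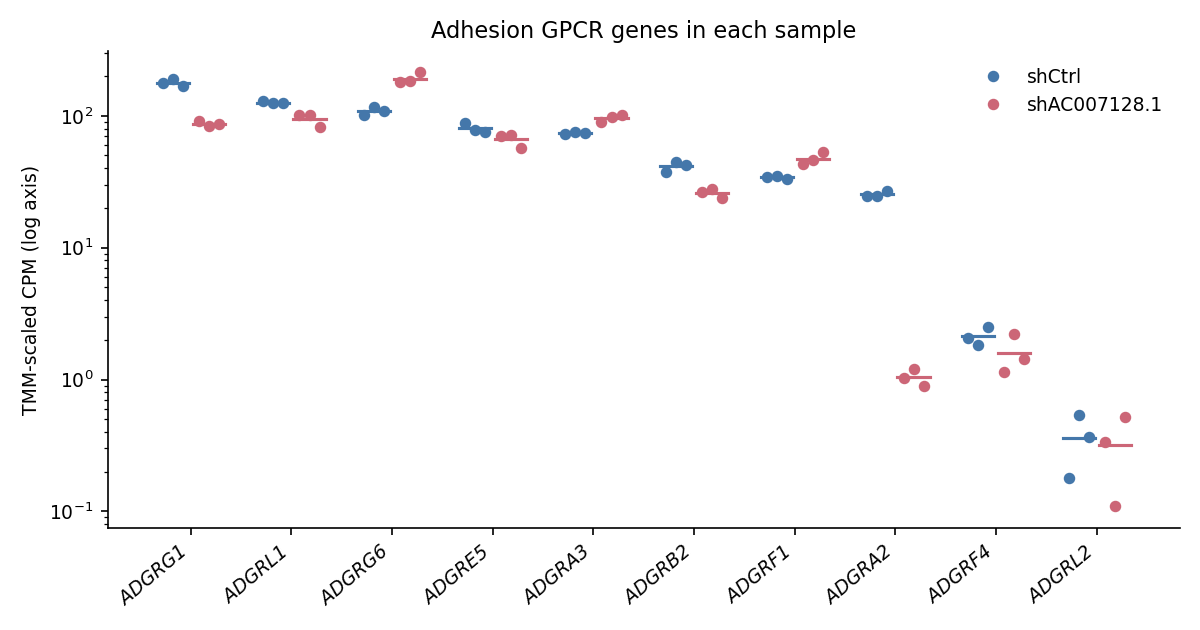
TMM-scaled CPM (log axis) of the 10 adhesion GPCRs in each of the 3 shCtrl and 3 shAC007128.1 libraries, with the bar at the group mean. ADGRA2 has a mean of 25.4 CPM in shCtrl and 1.04 CPM in shAC007128.1, ADGRG1 and ADGRG6 differ in opposite directions, and the points of ADGRF4 and ADGRL2 overlap between groups.

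ADGRA2 (GPR124, ENSG00000020181), which with RECK serves as a co-receptor for WNT7A and WNT7B in brain vessels, differed most in size. It gave 24.6, 24.7 and 27.1 CPM in shCtrl and 1.03, 1.20 and 0.895 CPM in shAC007128.1. The 3 control libraries lay within a narrow band far above the 3 hairpin libraries, and all 6 were above the detection floor, with 1799, 1984 and 1838 counts against 58, 66 and 52. The group means were 25.4 ± 1.42 and 1.04 ± 0.154 CPM (SD, n = 3 each), so that 4.10% of the control level was left, a 24.4-fold difference (log2 fold change -4.61, SE 0.16).

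The position of ADGRA2 limits how this value can be read. On hg38 it lies on the plus strand of chromosome 8 from 37784191 to 37844896, and the minus-strand gene BRF2, a subunit of an RNA polymerase III initiation factor, runs into its 3′ end. Of 7084 exonic bases of ADGRA2, 1629 (23.0%) are also exonic in BRF2, and the use of strand in the counting is not given in the sources used here, so reads from the shared stretch cannot be told apart. BRF2 had 10.4, 10.1 and 9.51 CPM in shCtrl and 17.2, 14.8 and 14.2 CPM in shAC007128.1 (log2 fold change 0.62, SE 0.12, edgeR adjusted p = 0.00648), below the fold limit of a call. In mean counts ADGRA2 held 1873.7 against 58.7 and BRF2 741.3 against 868.3. Adding both genes together gave a log2 fold change of -1.11 (SE 0.10). That sum includes all reads of BRF2, which hold most of it in shAC007128.1, so it is no estimate for ADGRA2 alone.

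**Figure D2:**
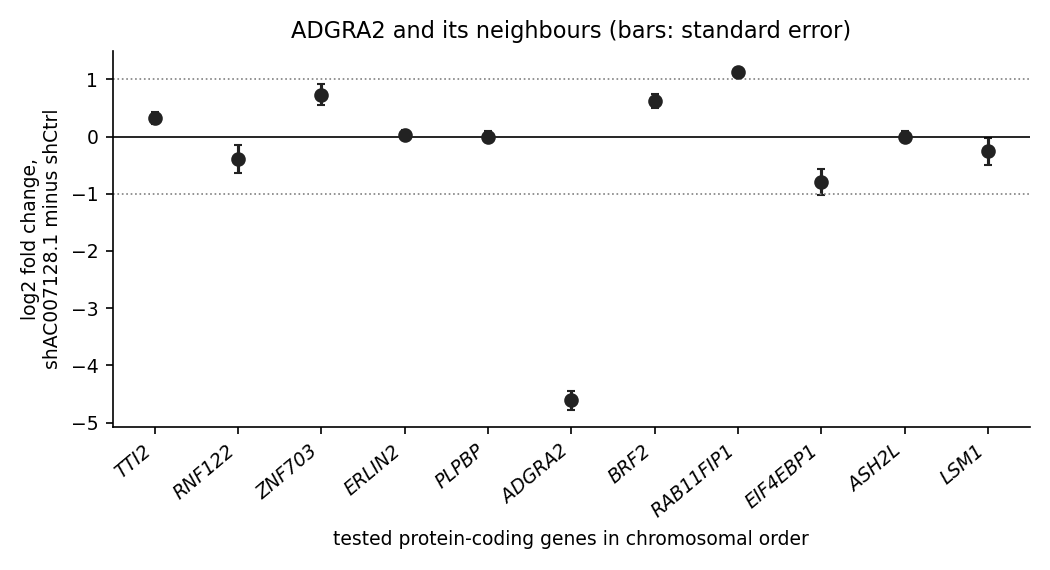
Log2 fold change (shAC007128.1 over shCtrl, bars ± 1 SE) of ADGRA2 and of the 5 tested protein-coding genes on each side, in genomic order and not to distance. ADGRA2 stands at -4.61, while the genes beside it range from -0.79 (EIF4EBP1) to 1.13 (RAB11FIP1).

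The genes around ADGRA2 were looked up after its value was seen. PLPBP, which ends 4423 bases before it, had a log2 fold change of 0.00 (SE 0.10, edgeR adjusted p = 0.976). RAB11FIP1, an endosome-recycling adaptor on the BRF2 side, rose by 1.13 on the log2 scale (SE 0.07, edgeR adjusted p = 5.26e-05). The nearest tested protein-coding genes on either side of each of the 10 receptors, 20 in all, were likewise looked up afterwards. Of these, 1 was called lower (IFI44, 2642069 bases from ADGRL2) and 1 higher (ASF1B, 11130 bases from ADGRL1). Among all genes tested 10.1% were called lower and 5.57% higher.

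The partners of ADGRA2 were unevenly present. RECK, which anchors WNT7 to the receptor, had 0 counts in all 6 libraries, which allows up to 3 counts in each. WNT7A and WNT7B, named here after their values were seen, were expressed at 55.9 ± 1.90 and 34.6 ± 1.96 CPM in shCtrl. Their levels in shAC007128.1 were 52.3 ± 5.56 and 37.7 ± 3.30 CPM, and neither passed the edgeR test (adjusted p = 0.470 and 0.355). ADGRA3 (GPR125, ENSG00000152990), the other receptor of this subfamily here, gave 72.5, 75.6 and 74.3 CPM in shCtrl and 89.3, 98.5 and 102 CPM in shAC007128.1. Its groups did not overlap, and its difference was opposite in sign to that of ADGRA2 (log2 fold change 0.38, SE 0.08).

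ADGRG1 (GPR56, ENSG00000205336, chromosome 16 from 57610652 to 57665580, plus strand), a receptor for collagen III and transglutaminase 2 that couples to G proteins of the G12 and G13 class, had the highest level of the 10 in shCtrl. Its values were 177, 190 and 167 CPM in shCtrl and 91.0, 83.6 and 86.5 CPM in shAC007128.1. The lowest control library was still well above the highest hairpin library. The means of 178 ± 11.3 and 87.0 ± 3.72 CPM leave 48.9% of the control level (log2 fold change -1.03, SE 0.08), which is close to the fold limit. Without the second shCtrl library the value was -0.99 and the call was lost.

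ADGRG6 (GPR126, ENSG00000112414, chromosome 6 from 142301854 to 142446266, plus strand), which binds collagen IV and laminin and is needed for myelination by Schwann cells, differed in the opposite direction. It had 102, 117 and 109 CPM in shCtrl and 179, 182 and 213 CPM in shAC007128.1. Every hairpin library exceeded every control library, with means of 109 ± 7.33 and 191 ± 18.6 CPM, or 175% of the control (log2 fold change 0.81, SE 0.09). The receptor of highest level thus differed between the groups: ADGRG1 stood above ADGRG6 in each shCtrl library and below it in each shAC007128.1 library.

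The RefSeq promoter windows of this pair (300 bases, of which 250 lie before and 50 after the start, GRCh38.p14) are shown because these receptors of one subfamily differed in opposite directions. The first is 1 of 3 windows listed for ADGRG1, at chr16:57628380-57628679 on the plus strand, and its capitals mark 2 matches to the AP-1 letters TGANTCA. The other is that of ADGRG6 at chr6:142301757-142302056 on the plus strand, and its capitals mark 1 match to the GC box letters GGGCGG.
ADGRG1: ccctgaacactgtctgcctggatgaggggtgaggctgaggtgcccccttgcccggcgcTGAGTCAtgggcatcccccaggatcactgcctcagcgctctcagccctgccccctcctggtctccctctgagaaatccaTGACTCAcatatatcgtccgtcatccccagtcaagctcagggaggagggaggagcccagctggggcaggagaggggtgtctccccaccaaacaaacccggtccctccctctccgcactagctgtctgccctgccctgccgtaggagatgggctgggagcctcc
ADGRG6: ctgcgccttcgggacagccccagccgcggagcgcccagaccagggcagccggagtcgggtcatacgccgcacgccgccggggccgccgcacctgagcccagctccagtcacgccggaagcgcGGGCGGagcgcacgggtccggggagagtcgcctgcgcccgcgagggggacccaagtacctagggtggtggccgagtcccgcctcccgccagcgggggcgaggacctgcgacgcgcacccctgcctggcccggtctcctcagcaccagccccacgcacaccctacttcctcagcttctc
Both strands were searched, and the letters of these motifs do not overlap in the windows shown. AP-1 letters were present in 7.71% of all 35116 promoter windows, and GC box letters in 45.0%. Of the 10 receptors 7 had windows in the RefSeq table, 16 windows in all, of which 2 held AP-1 letters, 5 the GC box, 2 the TEAD letters CATTCC (14.0% of all windows), and 0 the CRE letters TGACGTCA (1.85%) or the E-box CACGTG (7.26%). The ADGRG1 windows not shown held no match to any of these motifs, and which window is used in these cells was not tested. More of the 16 windows belong to the barely detected ADGRL2 than to any other receptor, so these counts describe windows and not receptors. A match is a string of letters and no evidence that a factor binds there.

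Known ligands of the pair were measured beside them. COL3A1, the collagen that binds ADGRG1, was near absent, with 16, 0 and 4 counts in shCtrl and 0 in each shAC007128.1 library. TGM2, the transglutaminase that also binds it, had 391 ± 7.68 CPM in shCtrl and 605 ± 56.8 CPM in shAC007128.1 (log2 fold change 0.63, SE 0.08, edgeR adjusted p = 0.000823), below the fold limit. COL4A1, a chain of collagen IV, was at 38.8, 40.2 and 35.5 CPM in shCtrl and at 111, 109 and 90.4 CPM in shAC007128.1. It rose by 1.44 on the log2 scale (SE 0.11, edgeR adjusted p = 9.4e-05). COL4A2, the chain it pairs with in collagen IV and named after its values were seen, was more abundant and gave 129 ± 3.86 and 126 ± 39.7 CPM (log2 fold change -0.03, edgeR adjusted p = 0.924). LAMC1, a laminin chain found in laminin-211, went from 639, 621 and 590 CPM to 295, 295 and 307 CPM and fell by 1.04 on the log2 scale (SE 0.06, edgeR adjusted p = 3.9e-05). The other laminin-211 chains, LAMB1 and LAMA2, also named after their values were seen, had log2 fold changes of 0.16 and 0.02 and did not pass the test.

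ADGRE5 (CD97, ENSG00000123146), a receptor of leukocytes and many carcinomas that binds CD55, gave 87.7, 77.4 and 75.7 CPM in shCtrl and 70.7, 71.8 and 57.0 CPM in shAC007128.1. The groups did not overlap, although the lowest control and the highest hairpin library were close (log2 fold change -0.27, SE 0.11). CD55, a complement-regulating surface protein, had 53.7 ± 1.97 and 33.6 ± 3.81 CPM (log2 fold change -0.68, SE 0.10, edgeR adjusted p = 0.00193), below the fold limit. The antisense gene ENSG00000267379 lies wholly within ADGRE5 exons over 252 bases (4.68% of them), and adding it left the log2 fold change at -0.27.

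Leukocyte markers differed between the groups and are given beside ADGRE5 for that reason. Their summed level was 59.4 to 68.3 CPM in shCtrl and 14.8 to 24.1 CPM in shAC007128.1, and 3 of 6 passed the filter. Nearly all of it came from CD68, a lysosomal protein not limited to leukocytes, at 58.8 to 67.3 CPM against 13.5 to 23.5 CPM, while PTPRC had at most 9 counts in any library. Fibroblast markers, of which 2 of 5 passed, summed to 14.6 to 15.8 CPM in shCtrl and 20.8 to 23.6 CPM in shAC007128.1, also without overlap. Of the 2, LUM was called higher (1.07 against 4.71 CPM, log2 fold change 2.14, edgeR adjusted p = 0.00193). COL1A1 was below the fold limit (log2 fold change 0.33, edgeR adjusted p = 0.0462). Endothelial markers, of which 2 of 4 passed, summed to 2.12 to 3.11 and 0.302 to 2.02 CPM. The part of these markers in the receptor values was not tested.

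ADGRL1 (latrophilin 1, ENSG00000072071), which binds teneurins and FLRT proteins on adjoining cells, had 129, 124 and 124 CPM in shCtrl and 101, 102 and 82.5 CPM in shAC007128.1. All control libraries lay above all hairpin libraries (log2 fold change -0.40, SE 0.10), and adding the antisense gene ADGRL1-AS1, which shares 473 exonic bases (5.57%), gave -0.39. On chromosome 19 ADGRL1 and ADGRE5 are each other's nearest tested protein-coding gene on the facing side only, 174314 bases apart. On their other sides ASF1B lies 11130 bases from ADGRL1 (log2 fold change 1.96) and DDX39A 73 bases from ADGRE5 (0.40), both looked up afterwards. ADGRL2 (ENSG00000117114) was barely detected, at 13, 43 and 25 counts in shCtrl and 19, 6 and 30 in shAC007128.1. Its groups overlapped throughout, so no difference was detectable at this depth (log2 fold change -0.16, SE 0.67).

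Among latrophilin ligands TENM3, a teneurin, had 17.4, 17.0 and 17.1 CPM in shCtrl and 38.4, 37.7 and 44.1 CPM in shAC007128.1. It rose by 1.22 on the log2 scale (SE 0.10, edgeR adjusted p = 0.000125). The other teneurins and the FLRT genes, given here after their values were seen, were not called. TENM2 went from 13.5 ± 0.440 to 7.04 ± 0.932 CPM (log2 fold change -0.94, SE 0.14, edgeR adjusted p = 0.00171), just short of the fold limit and opposite in sign to TENM3. TENM1 and TENM4, each below 1 CPM, had log2 fold changes of -1.15 and -0.97 (edgeR adjusted p = 0.106 and 0.118). The values were -0.34 for FLRT1, 0.40 for FLRT2 and -0.26 for FLRT3. SHANK3, a scaffold protein that binds latrophilin tails and is named after its values were seen, rose by 1.69 (SE 0.27, edgeR adjusted p = 0.00223), from 0.823 ± 0.103 to 2.66 ± 0.717 CPM.

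ADGRB2 (BAI2, ENSG00000121753), a receptor known mainly from brain, was clearly present in these squamous cells, at 37.4, 44.5 and 42.5 CPM in shCtrl and 26.3, 27.7 and 23.9 CPM in shAC007128.1. Its groups were well apart, and 62.6% of the control level remained (log2 fold change -0.68, SE 0.11). C1QL1 and C1QL4, secreted C1q-like proteins that bind receptors of the same subfamily, both fell. Within that subfamily ADGRB3 had 0 counts in all 6 libraries, and ADGRB1 had at most 8 in any. Whether C1QL1 or C1QL4 acts on ADGRB2 here was not tested. C1QL1 went from 8.86, 8.52 and 8.17 CPM to 2.13, 1.06 and 2.41 CPM (log2 fold change -2.19, SE 0.30, edgeR adjusted p = 0.00118), and C1QL4 from 2.29 ± 0.187 to 0.393 ± 0.125 CPM (log2 fold change -2.53, SE 0.29, edgeR adjusted p = 0.000559).

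ADGRF1 (GPR110, ENSG00000153292), which binds the fatty acid derivative synaptamide, had 34.6, 35.0 and 33.2 CPM in shCtrl and 43.0, 46.0 and 53.2 CPM in shAC007128.1. The control libraries lay close together, and the hairpin libraries were all higher and more spread (log2 fold change 0.47, SE 0.10). ADGRF4 (GPR115, ENSG00000153294), expressed mainly in stratified epithelia, had 2.06, 1.82 and 2.49 CPM in shCtrl and 1.14, 2.22 and 1.43 CPM in shAC007128.1. The second hairpin library lay inside the control range, so the groups overlapped (log2 fold change -0.41, SE 0.29). ADGRF4 shares 77 exonic bases (2.27%) with ADGRF2 on the same strand, and together they gave -0.54 (SE 0.29).

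Because long transcripts collect more reads, levels of different receptors were compared per kilobase of merged exons. In shCtrl the order from the top was ADGRG1 (19.8 ± 1.25 CPM per kilobase), ADGRE5 (14.9 ± 1.21), ADGRL1 (14.7 ± 0.39), ADGRG6 (12.9 ± 0.865), ADGRA3 (8.0 ± 0.17), ADGRB2 (5.35 ± 0.477), ADGRA2 (3.59 ± 0.20), ADGRF1 (2.77 ± 0.0745), ADGRF4 (0.625 ± 0.101) and ADGRL2 (0.0149 ± 0.0074). Among neighbours in that order only ADGRE5 and ADGRL1 had overlapping library ranges. In shAC007128.1 ADGRG6 came first at 22.5 ± 2.20 CPM per kilobase and ADGRG1 was at rank 5 with 9.65 ± 0.413. ADGRA2 went from rank 7 to rank 9, at 0.147 ± 0.0217. The neighbours ADGRE5 and ADGRL1, ADGRL1 and ADGRA3, ADGRA3 and ADGRG1, and ADGRF1 and ADGRB2 had overlapping ranges there.

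**Figure D3:**
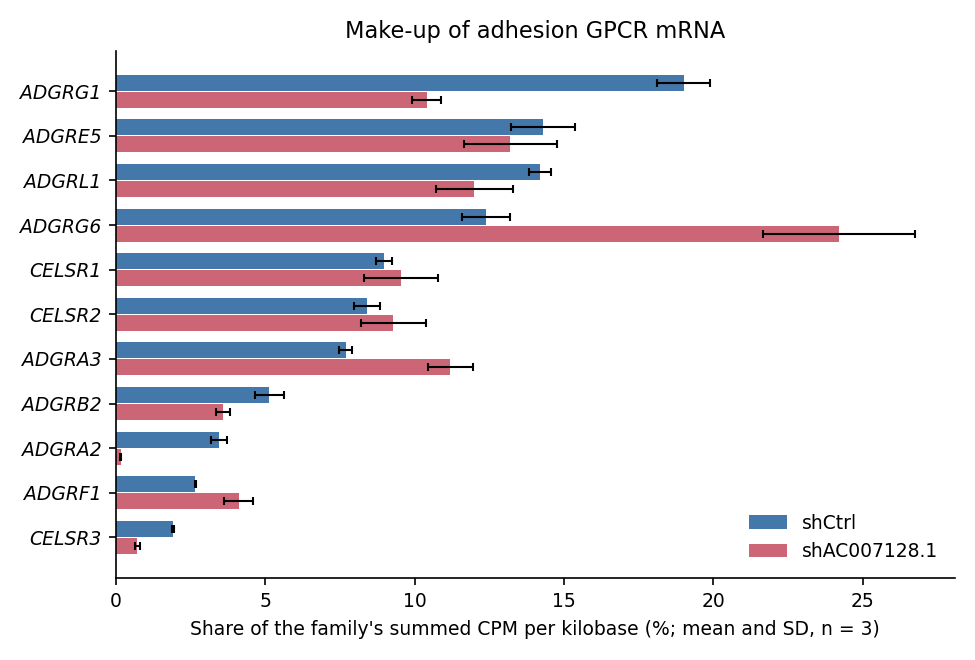
Share (%) of the summed CPM per kilobase of the adhesion GPCR family taken by each of 11 genes in shCtrl and shAC007128.1 (mean of 3 libraries, bars ± SD). ADGRG1 goes from 19.0% to 10.4% and ADGRG6 from 12.4% to 24.2%, and ADGRE5 from 14.3% to 13.2%.

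Summed over the family, the level per kilobase was 105, 106 and 102 in shCtrl and 93.2, 94.1 and 92.4 in shAC007128.1. The 10 receptors made up 79.0%, 80.1% and 79.3% of it in shCtrl and 78.7%, 79.5% and 80.0% in shAC007128.1, ranges that overlap. Within that sum ADGRG1 held 19.0 ± 0.888% in shCtrl and 10.4 ± 0.486% in shAC007128.1, and ADGRG6 12.4 ± 0.804% and 24.2 ± 2.54%. ADGRA2 held 3.46 ± 0.26% and 0.158 ± 0.0219%. Shares add up to a fixed whole, so a larger share of one gene lowers the others.

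**Figure D4:**
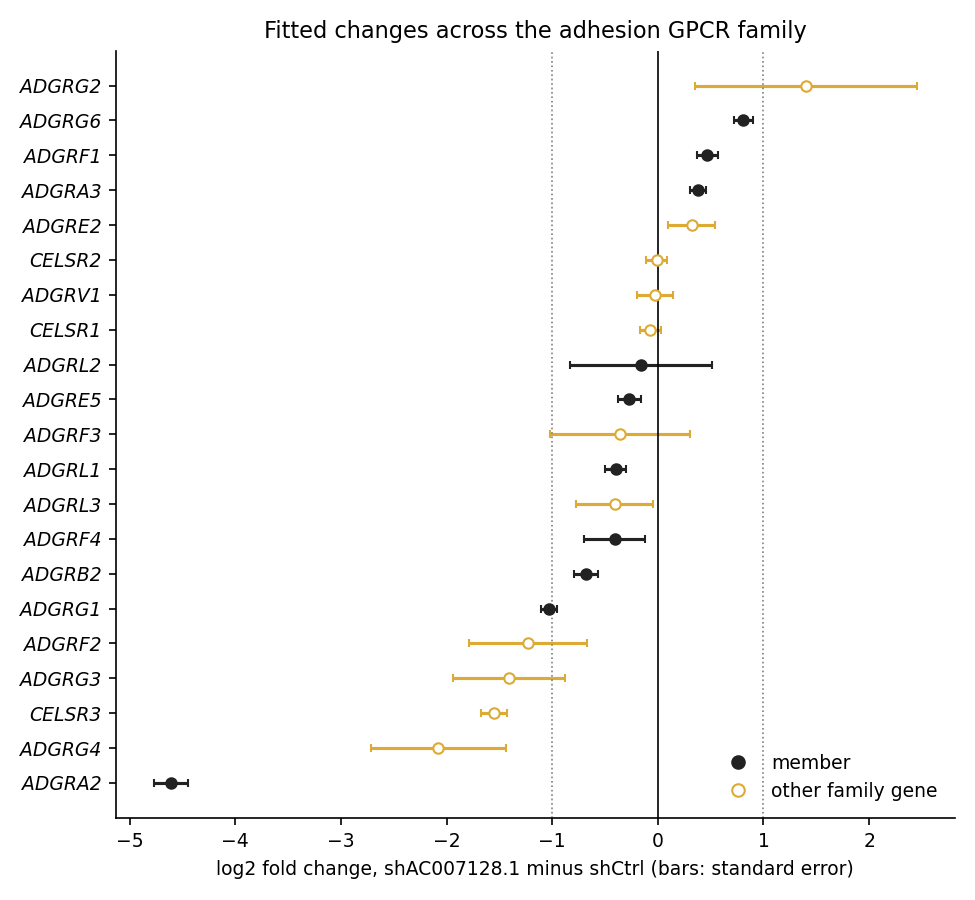
Log2 fold change (shAC007128.1 over shCtrl, bars ± 1 SE) of 21 adhesion GPCR genes that passed the low-count filter, the 10 described here and 11 others. ADGRE1, with 0 counts in all shAC007128.1 libraries, is left off, ADGRA2 is lowest at -4.61, and CELSR3 stands at -1.55.

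Of the other 23 genes of the family, 12 passed the filter. Of these, 3 were called lower and 0 higher, beside 10.1% and 5.57% of all genes tested. By limma-voom 4 were lower and by DESeq2 3, again with 0 higher by either, and 0 had a positive fold change at an unadjusted p under 0.05 in edgeR. CELSR3, an atypical cadherin with a role in planar polarity, had 27.3, 28.1 and 27.0 CPM in shCtrl and 8.38, 10.7 and 8.96 CPM in shAC007128.1. It fell by 1.55 on the log2 scale (SE 0.12, edgeR adjusted p = 0.000122). Its relatives CELSR1 (150 against 142 CPM, log2 fold change -0.07) and CELSR2 (112 against 111 CPM, -0.01) were not called.

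The remaining calls in the family, ADGRG4 and ADGRE1, rest on few reads. Both reached the filter through their shCtrl libraries, where they are high, so the direction of their calls is not read as a result. ADGRG4 had 43, 66 and 36 counts in shCtrl and 4, 4 and 18 in shAC007128.1 (log2 fold change -2.08, SE 0.64, edgeR adjusted p = 0.0361), and its call was lost in 5 of the 6 fits that left out 1 library (adjusted p = 0.0708 to 0.119). ADGRE1 had 18, 16 and 23 counts in shCtrl and 0 in each shAC007128.1 library (edgeR adjusted p = 0.0071). Against a floor of 3 counts per library the log2 fold change of ADGRE1 is at most -2.30. The others that passed the filter were not called by edgeR: ADGRG3 (-1.41), ADGRF2 (-1.23), ADGRL3 (-0.41), ADGRF3 (-0.36), ADGRV1 (-0.03), ADGRE2 (0.32) and ADGRG2 (1.40). ADGRG3 was the additional call of limma-voom (-1.56, adjusted p = 0.0499), and edgeR called it without the first hairpin library (-1.91, adjusted p = 0.0381). Its counts were 45, 42 and 33 in shCtrl and 18, 11 and 5 in shAC007128.1. It too reached the filter through its shCtrl libraries, so its direction is not read as a result. ADGRG3 begins 2697 bases past the end of ADGRG1. The 12 had a median log2 fold change of -0.38, beside -0.02 for all genes tested. ADGRE1, ADGRG4, ADGRG3 and ADGRF2 among them reached the filter through shCtrl libraries, where they are high. Their negative values enter that median, so it is not read as a result. Another 11 genes did not pass, of which 3 had 0 counts in all libraries.

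**Figure D5:**
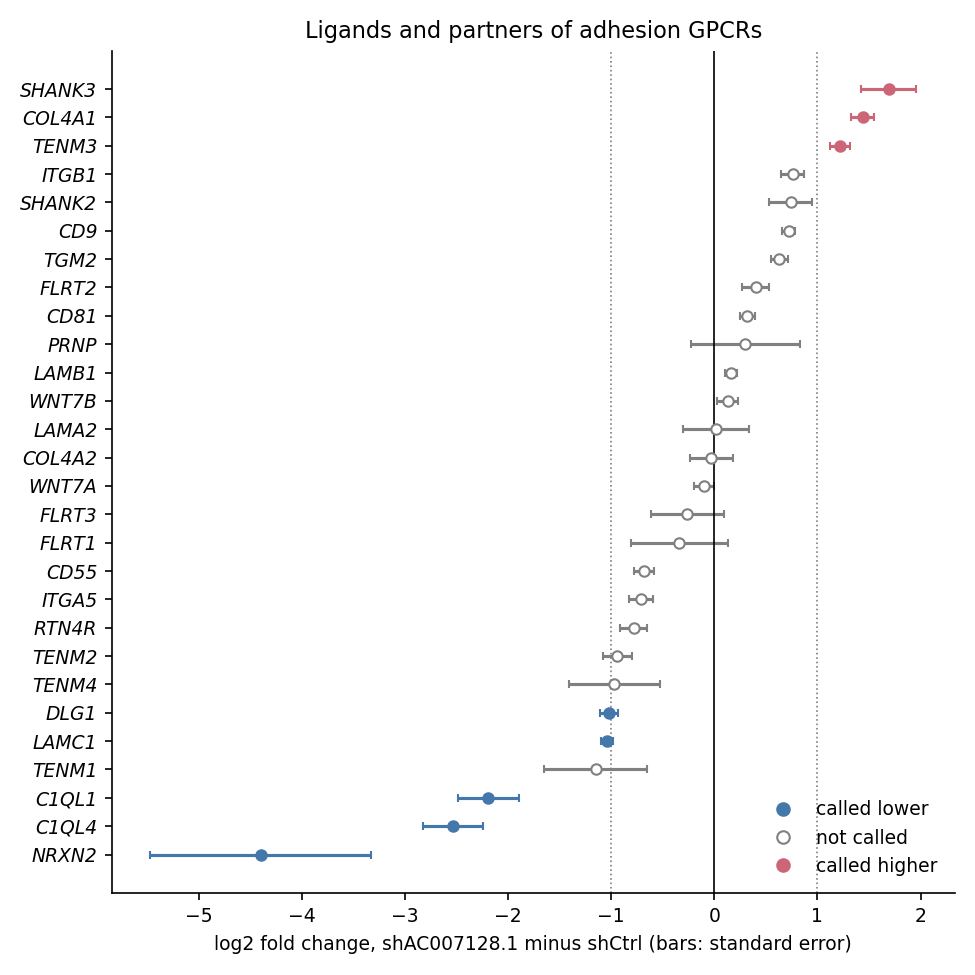
Log2 fold change (shAC007128.1 over shCtrl, bars ± 1 SE) of 28 ligand and partner genes of adhesion GPCRs that passed the low-count filter. COL4A1 stands at 1.44 and TENM3 at 1.22, and LAMC1 at -1.04 and C1QL1 at -2.19.

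Over the whole list of 36 ligands and partners, 28 passed the filter, 3 were called higher (COL4A1, TENM3 and SHANK3), 5 lower and 20 not called. Among all genes tested 5.57% were called higher and 10.1% lower. The median log2 fold change of the list was -0.06, with 13 positive and 15 negative values, beside -0.02 for all genes tested. The lower genes were LAMC1, C1QL1, C1QL4, DLG1 and NRXN2. DLG1, a scaffold protein of cell junctions, went from 390, 400 and 395 CPM to 183, 181 and 221 CPM (log2 fold change -1.02, SE 0.09, edgeR adjusted p = 0.000171), and without the first or second hairpin library its value was -0.98 or -0.97, short of the fold limit. NRXN2, a neurexin named after its values were seen, had 29, 70 and 24 counts in shCtrl and 0, 4 and 0 in shAC007128.1. Its edgeR adjusted p was 0.0147, and 0.071 without the second control library. NRXN2 passed the filter through its shCtrl libraries alone, so its direction is not read as a result.

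Downstream of the receptors, 31 of 38 G protein and effector genes passed the filter. Of these edgeR called 2 higher and 2 lower, beside 5.57% and 10.1% of all genes tested, and 27 in neither direction. The list had a median log2 fold change of 0.16 (20 positive and 11 negative), beside -0.02 for all genes tested. DESeq2 and limma-voom each called 3 lower, the addition being ADCY5, an adenylyl cyclase named after its values were seen (-3.07 and -3.81, adjusted p = 0.0494 and 0.0234), which edgeR did not call (-3.0, adjusted p = 0.0762). ADCY5 had 30, 16 and 20 counts in shCtrl and 0, 6 and 0 in shAC007128.1. It reached the filter through its shCtrl libraries, so its direction is not read as a result. GNAQ, the alpha subunit of Gq, had 90.5, 90.3 and 90.4 CPM in shCtrl and 194, 194 and 243 CPM in shAC007128.1, and rose by 1.22 on the log2 scale (SE 0.10, edgeR adjusted p = 0.000147). GNA15, of the same class, had 56.0, 55.7 and 53.7 CPM in shCtrl and 150, 127 and 94.3 CPM in shAC007128.1. It rose by 1.16 (SE 0.16, edgeR adjusted p = 0.00117), with hairpin libraries far more spread than the controls, and without the first of them its value was 1.0, just under the limit.

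RHOB, a small GTPase of endosomes, had 94.1, 93.8 and 94.2 CPM in shCtrl and 35.6, 34.6 and 28.0 CPM in shAC007128.1, and fell by 1.52 on the log2 scale (SE 0.11, edgeR adjusted p = 7.9e-05). GNAZ, an inhibitory alpha subunit, had 168, 138 and 141 counts in shCtrl and 0, 33 and 6 in shAC007128.1 (log2 fold change -3.11, SE 0.95, edgeR adjusted p = 0.0353), and its call was lost in 4 of the 6 fits that left out 1 library (adjusted p = 0.073 to 0.0991). GNAZ also reached the filter through its shCtrl libraries, so its direction is not read as a result. The G protein genes to which ADGRG1 couples, and RHOA, were added after their values were seen. GNA12 had a log2 fold change of 0.16 and RHOA of -0.03, both not past the test, and GNA13 of 0.53 (SE 0.10, edgeR adjusted p = 0.00557), below the fold limit.

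The hairpin's target is shown because a hairpin can also pair with other transcripts through the seed of its guide strand, bases 2 to 8. Capitals mark the letters that pair with the seed.
AC007128.1 hairpin target: ccacaagtcctGGCACATt
Over its 19 bases the longest stretch found in a canonical transcript of the 10 receptors was 10 bases, in ADGRB2 and ADGRG1. The seed letters occurred once each in ADGRA2 and ADGRA3, in coding sequence, and in ADGRG1, in the 3′ UTR, and in 0 of the other 7. Of 13592 tested protein-coding genes 17.5% held them anywhere in the transcript and 10.3% in the 3′ UTR. The transcripts of ADGRA2, ADGRA3 and ADGRG1 hold 6944, 4577 and 4257 bases, beside a median of 3256 for the tested genes. These shares are therefore not matched for length. Whether the hairpin acted on any of these transcripts was not tested.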

How the data were processed

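Bulk RNA sequencing of 6 KYSE150 libraries was used. Per the study's methods the authors filtered the reads and mapped them to hg38 with TopHat. The submitters' processing notes name CASAVA 1.8 and TopHat2 2.0.6, and a mouse genome build beside the human one. The authors deposited 1 table of estimated counts by human Ensembl identifier, whole numbers with no scaling applied. The counting program, annotation and use of strand are not given in the sources used here. Multiples of 4 are over-represented among low values, and dividing by 4 was therefore tried. Samples were grouped by title and description, because the treatment text names shAC007128.1 for all 6 libraries, and 0 sample columns were unmapped.

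In R 4.3.3, the quasi-likelihood test of edgeR 4.0.16 was run over all genes left by filterByExpr, after TMM scaling and with Benjamini-Hochberg adjustment. Calls needed an adjusted p no higher than 0.05 together with an absolute log2 fold change no lower than 1. Alternatives were DESeq2 1.42.0, limma-voom (limma 3.58.1), other size factors and filters, a replicate block and leaving out each library. The test was checked on simulated data, with no value of that check reported. Gene models came from GENCODE v44 (hg38), which lists ADGRF2P as ADGRF2, and promoters from RefSeq (GRCh38.p14).

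The 10 receptors and all gene lists were chosen with earlier results of these data known. The genes named were the 10 receptors, other family genes past the filter, the called genes of each list up to 6 by smallest p, CD55, COL3A1, TGM2 and RECK, the target, and genes sharing exons with a receptor. Cell type markers came from lists of their own. Other genes outside this rule are marked as named or looked up after values were seen.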

Additional observations from a re-analysis of the deposited data

How the results depend on the processing

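With no limit on fold change 4041 genes were higher and 3820 lower, which took the lower share of calls from 64.4% to 48.6%. That setting gave 3 of the 10 receptors higher and 4 lower, 9 ligand and partner genes in each direction, and 11 G protein and effector genes higher and 3 lower. Scaling by library size alone shifted the median log2 fold change of all genes to -0.098 and the lower share to 70.5%. Leaving out 1 library at a time gave 1 to 2 receptors called lower (ADGRG1 at -0.99 without shCtrl replicate 2), 1 to 3 G protein and effector genes higher and 1 to 3 lower. The log2 fold change of ADGRL2 then ran from -0.69 to 0.25, changing sign without shCtrl replicate 2 (0.23) and without shAC007128.1 replicate 2 (0.25). The log2 fold changes of the other 9 receptors kept their sign in all settings. The sum of ADGRA2 and BRF2 gave -1.11, beside -4.61 for ADGRA2 as counted.

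Under a minimum of 10 counts per library, and likewise after division by 4, only 1 other family gene was called lower, since ADGRG4 and ADGRE1 were then not tested. ADGRG4 also lost its call in 5 of the 6 fits without 1 library. GNAZ was lost with no filter on low counts, leaving 1 G protein and effector gene lower, and was not tested at 10 counts, which also left 1. NRXN2 was not tested under either of the stricter settings and lost its call without shCtrl replicate 2. DLG1 lost its call without shAC007128.1 replicate 1 (-0.98) or 2 (-0.97). In the order of levels in shCtrl, 5 of 10 receptors kept their rank with the longest transcript as length and 5 with CPM. Where no construction is named, the cause was not tested.

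The replicate numbers do not pair the samples: same-numbered deviations correlated at 0.0306, -0.0254 and -0.0299, and only number 1 matched its own best. With the replicate block 977 genes were called higher and 1692 lower. It kept 2 receptors lower, and ADGRG4 (-2.32) lost its call, leaving 2 other family genes lower.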
